A study of Mus musculus with 9 samples.

Results

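B16F10 mouse melanoma cells overexpressing Sirpa were compared with B16F10 cells carrying a non-targeting control. The comparison rests on 6 of the 9 libraries of the series, 3 whose genotype label is SIRPA overexpression and 3 whose genotype label is Non-target control. The other 3 libraries, from a SIRPA knockdown line, entered the same fit. They thus helped set the gene filter, the library scaling and the estimate of spread for every test. Otherwise they are used only to show where the overexpression line does or does not differ from them. B16F10 is a pigmented melanoma line of mouse origin, and all libraries were made from RNA of cells grown in complete DMEM with no treatment named. Each condition is 1 line, and the labels give neither the vector, the Sirpa cDNA and its promoter, nor whether a line is a clone or a pool. The p-values therefore measure the spread between repeats of 1 line. In bulk RNA, fewer cells that make a transcript and less of it per cell cannot be told apart.

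Sirpa encodes signal regulatory protein alpha, a surface receptor whose outer immunoglobulin domain binds CD47 and whose cytoplasmic tail recruits the tyrosine phosphatases SHP-1 and SHP-2. It is best known from macrophages, in which it restrains the engulfment of cells that carry CD47. Melanoma cells can take up a pigmented, differentiated state or a less differentiated one that is rich in matrix and mesenchymal gene products, and interferon, nutrient and stress programmes are also active in such cells to varying degrees.

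In units of 1000000, estimated counts summed to between 16.4 and 20.3 in the control libraries and to between 17.2 and 21.4 in the overexpression libraries. Levels are given in CPM, counts per 1000000 fragments, on library sizes scaled by TMM, with the SD of 3 libraries where one is shown. A gene is said to have risen or fallen where edgeR's quasi-likelihood test gave a p under 0.05 after Benjamini-Hochberg adjustment across the 13064 genes tested. Changes are log2 fold changes of overexpression over control ± SE. Of 16 melanocyte markers 15 were expressed highly enough to be tested, and the markers of that list summed to between 18935 and 19132 CPM in controls and between 20765 and 21290 CPM with overexpression. Of 16 myeloid markers 2 were tested and 7 were at 0 in all 6 libraries, and of 14 lymphocyte markers 1 was tested and 10 were at 0. None of those tested was called.

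Sirpa stood at 292, 289 and 303 CPM in controls and at 895, 898 and 914 CPM with overexpression (1.61 ± 0.04), and most of the RNA gained was of 1 exon form. Some annotated Sirpa transcripts carry a coding exon that ends at either of 2 splice sites, 12 bases or 4 codons apart. It lies at chr2:129627946-129627997 on the plus strand of GRCm38. The exon is shown in both forms, from GENCODE M21 transcripts, because the summed levels of the transcripts with each form differed in opposite directions, and the extra bases of the long form are in capitals.
Sirpa-201, long form: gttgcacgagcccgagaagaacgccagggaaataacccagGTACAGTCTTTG
Sirpa-203, short form: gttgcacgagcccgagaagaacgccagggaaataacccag
The 3 transcripts with the long form together stood at 55.1, 51.1 and 65.2 CPM in controls and at 703.4, 720.9 and 715.5 CPM with overexpression. The 5 transcripts with the short form stood at 234.2, 234.7 and 234.4 CPM in controls and at 178.6, 168.8 and 178.0 CPM with overexpression. The libraries of the lines did not overlap for either form (over all genes tested they did not overlap for 40.4%), and the short form was lower while the gene as a whole was higher. Single transcripts did not all follow the sum of their form: the short-form Sirpa-204 stood at 41.38, 105.56 and 73.25 CPM in controls and at 119.26, 119.68 and 125.18 CPM with overexpression. As a share of the gene's TPM, Sirpa-201 held 14%, 12% and 12.5% in controls and 59.3%, 64% and 54.7% with overexpression. Sirpa-214, a transcript with the short form, held 25.6%, 16.3% and 19.5% in controls and 0% in every overexpression library. The shares of the Sirpa transcripts were called as changed (adjusted p = 0.000523 by edgeR and 0.000481 by limma). These values are Salmon's division of fragments among transcripts that are largely identical, so each is less certain than the gene total.

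**Figure D1:**
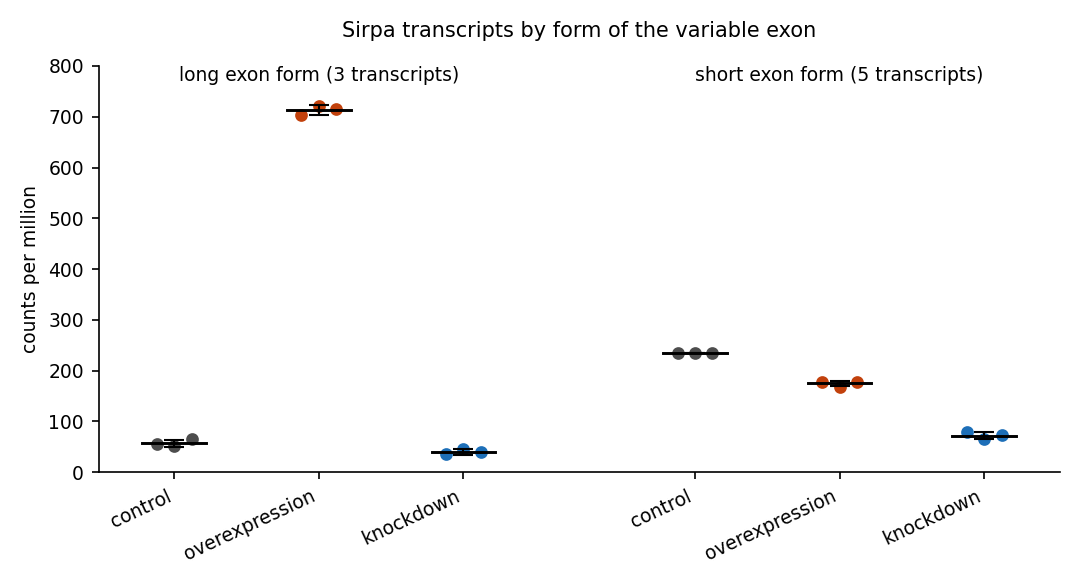
Sirpa transcripts grouped by the form of the variable exon, in CPM, with 1 point for each library of the control, overexpression and knockdown lines and bars for the mean ± SD of 3 libraries. The long form averaged 57.1 CPM in controls and 713.3 CPM with overexpression, and the short form 234.4 and 175.1 CPM.

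Across the transcriptome 3172 genes (24.3% of those tested) differed between the lines, 1716 of them higher (13.1%) and 1456 lower (11.1%) with overexpression. These percentages are the background for the counts of list members given here, and the median change over all genes tested was −0.001. Most differences were small. The median absolute change of called genes was 0.354, and 288 (2.2%) were at least 2-fold apart, 142 higher and 146 lower. When counts were corrected for the average length of each gene's transcripts in each library, 1575 genes were called in place of 3172. Genes named as risen or fallen kept their call under all 14 alternative settings unless stated. Some named genes share 31-base words with other genes, among them Loxl2 (46.4%), Idi1 (27.1%) and H2-D1 (26.9%), and as the libraries are non-directional, overlapping antisense genes cannot be told apart.

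**Figure D2:**
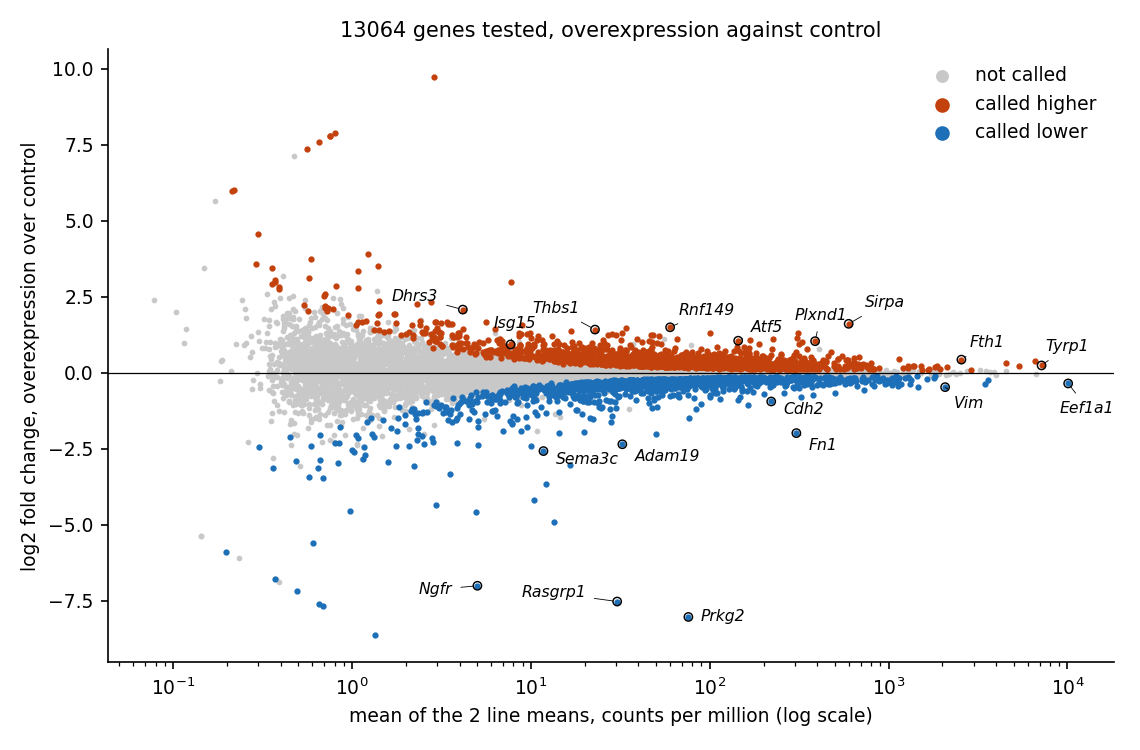
Each point is 1 of 13064 tested genes, placed by its mean level in CPM (log axis) and by its log2 fold change of overexpression over control. Coloured points are the 1716 genes called higher and the 1456 called lower, and labelled genes include Sirpa at 1.61 and Fn1 at −1.98.

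In linear CPM, a unit that favours abundant genes, the largest changes were in genes that the control cells already transcribed strongly. Eef1a1, which encodes the elongation factor that brings aminoacyl-tRNA to the ribosome, stood at 11370, 11420 and 11150 CPM in controls and at 8896, 9060 and 8698 CPM with overexpression (−0.35 ± 0.02), with 51.5% of its 31-base words shared with other genes, so that its own level is uncertain. Eef2, the gene of the translocation factor, fell from 3932 ± 84.4 to 3035 ± 27.6 CPM (−0.37 ± 0.03). Structural genes of mesenchymal cells were lower as well: Vim, the intermediate filament vimentin, fell from 2407 ± 55.9 to 1737 ± 57.2 CPM, and Serpinh1, a collagen chaperone, from 1295 ± 22.6 to 967 ± 6.44 CPM (−0.42 ± 0.04, adjusted p = 1.66e-06). Among the rises were Gpnmb, a melanosomal glycoprotein gene (4014 ± 62.3 to 5003 ± 7.78 CPM), and Fth1, the ferritin heavy chain gene (2173 ± 30.7 to 2936 ± 85 CPM). Rises of more CPM were called in the main fit for mt-Co1 (5744 ± 227.9 to 7508 ± 462.2 CPM) and Tyrp1 (6565 ± 141.9 to 7773 ± 147.2 CPM). Of the 31-base words of mt-Co1, 63.9% are shared with other genes. Met, the receptor of hepatocyte growth factor, stood at 967, 966 and 962 CPM in controls and at 1323, 1322 and 1345 CPM with overexpression (0.46 ± 0.03, adjusted p = 8.50e-08), with the lines far apart relative to their spread. Of 39 tested cytosolic ribosomal protein genes 34 fell and 0 rose (median −0.20), and many of these genes have near-identical copies. The 34 falls became 19 with the length correction. Some of these genes were as low in the knockdown line. For example, Rpl6 was at 1210 CPM in controls, 980.1 CPM with overexpression and 964.5 CPM with knockdown, and Rpl7 at 1080, 831.6 and 821.1 CPM. Neither was called between overexpression and knockdown, and Rpl4 was not called between knockdown and control.

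Of the genes of the SIRPA and CD47 axis, that of a CD47-binding protein and that of a phosphatase rose, and Cd47 was not called. In all 7 of 21 tested genes of the axis rose, Sirpa included, and 2 fell (median 0.06). The 7 rises became 3 with the length correction or without control replicate 3 or without overexpression replicate 3 and 4 without overexpression replicate 1. Thbs1, which encodes thrombospondin-1, a secreted matrix protein that also binds CD47, stood at 12.3, 12.8 and 12.1 CPM in controls and at 30.6, 36 and 33.2 CPM with overexpression (1.42 ± 0.10, adjusted p = 5.55e-08). Every overexpression library was above every control. Cd47 was at 35.2 and 36.1 CPM (adjusted p = 0.798). Of the phosphatases, Ptpn6, the gene of SHP-1, rose from 13.1 ± 0.973 to 19.8 ± 2.35 CPM (0.60 ± 0.12), and Ptpn11, the gene of SHP-2, was at 219 and 214.2 CPM (adjusted p = 0.642). The adaptor gene Skap2 (122 to 96 CPM, −0.35 ± 0.06) and the Src-family kinase gene Fyn (91.2 to 72.6 CPM, −0.33 ± 0.06) fell.

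Extracellular matrix genes fell more often than they rose. Of 53 tested, 25 fell and 9 rose (median −0.30). The 9 rises became 5 without control replicate 3 or without overexpression replicate 3. Fn1, which encodes fibronectin, stood at 495, 480.4 and 485 CPM in controls and at 122, 112 and 135 CPM with overexpression, 3.95-fold lower (−1.98 ± 0.05, adjusted p = 4.30e-13). The basement membrane proteoglycan genes Hspg2 (perlecan, 221 to 105 CPM, −1.07 ± 0.06) and Agrn (agrin, 186 to 108 CPM, −0.78 ± 0.05) fell. So did the collagen genes Col5a1 (119.5 to 58.3 CPM, −1.04 ± 0.06) and Col12a1 (24.7 to 13.1 CPM, −0.91 ± 0.12) and Loxl2, a collagen crosslinking enzyme gene (27.1 to 14.2 CPM, −0.93 ± 0.12). The matrix was not lower throughout. Lamc1, the laminin gamma-1 chain gene, rose (140.5 to 223 CPM, 0.67 ± 0.05, adjusted p = 5.03e-08), like Thbs1. The collagen genes Col1a1 (55.6 to 66.5 CPM) and Col1a2 (5.27 to 8.39 CPM) were called higher in the main fit but not with the length correction. Proteases and their relatives moved both ways, 10 of 20 down and 4 up. Adam19, a membrane metalloprotease gene, stood at 56.4, 55.2 and 51.4 CPM in controls and at 10.7, 11.4 and 9.97 CPM with overexpression (−2.35 ± 0.10), Mmp15 (15 to 6.22 CPM, −1.27 ± 0.21) and Adamts1 (369.9 to 261 CPM, −0.50 ± 0.04) fell too, and Adam9 (336 to 425 CPM, 0.34 ± 0.04) and Adam15 (43.7 to 59.8 CPM, 0.45 ± 0.08) rose. The 12 fibroblast markers, of which 6 were tested, 3 rose and none fell, summed to between 93.3 and 101 CPM in controls and between 106 and 117 CPM with overexpression, and their part in these changes was not tested. The 3 rises became 0 with the length correction or without overexpression replicate 2 or 3 and 1 without control replicate 1 or 3.

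Cadherins and catenins that changed were lower, and integrins were mixed. Of 12 tested genes of cadherins, protocadherins and the catenins that bind them 6 fell and 0 rose (median −0.49). Cdh2, which encodes N-cadherin, stood at 288, 289 and 294 CPM in controls and at 146, 152 and 155 CPM with overexpression (−0.94 ± 0.04, adjusted p = 1.40e-10), and Pcdh17 (33.1 to 11.7 CPM, −1.50 ± 0.12) and Pcdh7 (86.1 to 60.7 CPM, −0.50 ± 0.06) fell as well. In the immunoglobulin family Mcam, a melanoma adhesion molecule gene, fell (160.0 to 116 CPM, −0.46 ± 0.05), and the genes called higher were Nectin2 (39.8 to 52.2 CPM, 0.39 ± 0.08) and Nectin3 (34 to 49.4 CPM, 0.54 ± 0.08), whose products hold neighbouring cells together. Ctnnb1, the gene of beta-catenin, was at 1442 and 1521 CPM. Of 17 integrin subunit genes 5 rose and 4 fell (median 0.16). The 5 rises became 3 with the length correction. Itga3 (14.7 to 4.24 CPM, −1.79 ± 0.21) and Itga6 (134 to 99.4 CPM, −0.43 ± 0.05) fell, and Itga5 (40.7 to 52.4 CPM, 0.36 ± 0.07) and Itgb3 (14.9 to 22.4 CPM, 0.59 ± 0.11) rose. In the main fit Itga7 (1.93 to 4.32 CPM), Itga9 and Itgav were also called higher. Itgb1, the most abundant subunit gene (697.1 to 598.2 CPM), and Itgb5 were also called lower.

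The list of mesenchymal and invasive genes had the lowest median of the lists examined, at −0.60, with 10 of 16 lower and 2 higher. It shares Fn1, Cdh2 and Vim with the groups above. Axl, a receptor tyrosine kinase gene of the less differentiated melanoma state, fell (41.4 to 18.8 CPM, −1.14 ± 0.11), as did the AP-1 gene Jun (61.8 to 43.9 CPM, −0.49 ± 0.08). Ngfr, a neural crest receptor gene, had a mean of 9.99 CPM in controls and 0.066 CPM with overexpression. Ccn1, a matricellular gene downstream of YAP, rose (102 to 143 CPM, 0.49 ± 0.06), while Yap1 was at 218 and 207 CPM.

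Among guidance genes, whose products steer axons and migrating cells, more fell than rose. Of 41 tested, 12 fell and 5 rose (median −0.07). Among ligands, of which 7 of 21 fell and 2 rose, the secreted semaphorin gene Sema3c stood at 19.9, 20.5 and 20.1 CPM in controls and at 3.25, 3.59 and 3.32 CPM with overexpression (−2.57 ± 0.17, adjusted p = 1.65e-08). Sema3d (3.95 to 0.473 CPM), Sema3a (3.80 to 0.818 CPM, −2.20 ± 0.46) and the membrane-bound Sema6a (42.6 to 13.8 CPM, −1.63 ± 0.10) and Sema4c (84.4 to 49.4 CPM, −0.77 ± 0.06) fell, and Sema3b rose (63.7 to 93 CPM, 0.55 ± 0.06). Of 20 receptor genes 5 fell and 3 rose, the latter all plexins: Plxnd1 (254 to 523 CPM, 1.04 ± 0.05, adjusted p = 1.99e-10), Plxna1 (509 to 682 CPM, 0.42 ± 0.04) and Plxnb2 (541 to 666 CPM, 0.30 ± 0.03). The ephrin receptor gene Epha7 (31.5 to 8.24 CPM, −1.94 ± 0.16) and the Slit receptor gene Robo1 (75.2 to 52.7 CPM, −0.51 ± 0.06) fell, and the semaphorin co-receptor gene Nrp1 was at 44.4 and 43.8 CPM.

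Changes in signalling genes were large at a few members and small at most others. In the Ras and ERK list 8 of 40 genes fell and 6 rose (median −0.01). The 6 rises became 2 with the length correction, and the 8 falls became 3 with the length correction and 5 without overexpression replicate 2. Rasgrp1, a Ras activator that responds to diacylglycerol, stood at 57.2, 61.6 and 62.6 CPM in controls and at 0.377, 0.118 and 0.459 CPM with overexpression, and its relative Rasgrp3 rose (158 to 214.5 CPM, 0.44 ± 0.04, adjusted p = 8.29e-07). Among ERK outputs, the immediate early gene Egr1 fell (27.2 to 14.1 CPM, −0.95 ± 0.10) and the cyclin gene Ccnd1 rose (211 to 278 CPM, 0.40 ± 0.04), while the feedback phosphatase genes Dusp4 (167 and 158 CPM) and Dusp6 (139.9 and 129 CPM) were not called. In the cyclic nucleotide list 7 of 27 fell and 3 rose (median −0.19). The 7 falls became 3 with the length correction. Prkg2, a cGMP-dependent kinase, stood at 150.1, 153 and 151 CPM in controls and at 0.613, 0.530 and 0.573 CPM with overexpression, and its paralog Prkg1 at 85.2 and 86.9 CPM. No fold is given for Rasgrp1 or Prkg2, which rest on few counts in the overexpression line. Adcy7, an adenylyl cyclase gene, fell (105 to 78.4 CPM, −0.43 ± 0.07), and Pde8a, a cAMP phosphodiesterase gene, rose (7.16 to 13.7 CPM, 0.93 ± 0.15). Of 15 receptor tyrosine kinase genes 3 rose and 5 fell (median −0.14), Met among the former and Axl and Erbb3 (85.7 to 49.4 CPM, −0.80 ± 0.07) among the latter. The 3 rises became 1 with the length correction or without control replicate 1, and the 5 falls became 2 with the length correction. Tgfb2 (27.9 to 14.5 CPM, −0.95 ± 0.10) and Ltbp4 (41.4 to 15.5 CPM, −1.42 ± 0.11), a TGF-beta and a protein that anchors latent TGF-beta in the matrix, both fell. In the main fit Tgfb1 (8.77 to 12.9 CPM) and the receptor gene Tgfbr2 (39.3 to 48.7 CPM) were called higher, and Tgfbr1 (72.3 to 62.7 CPM) lower. Of 28 tested Wnt, TGF-beta and BMP genes 4 rose and 4 fell (median −0.03). With the length correction 1 rose and 2 fell.

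**Figure D3:**
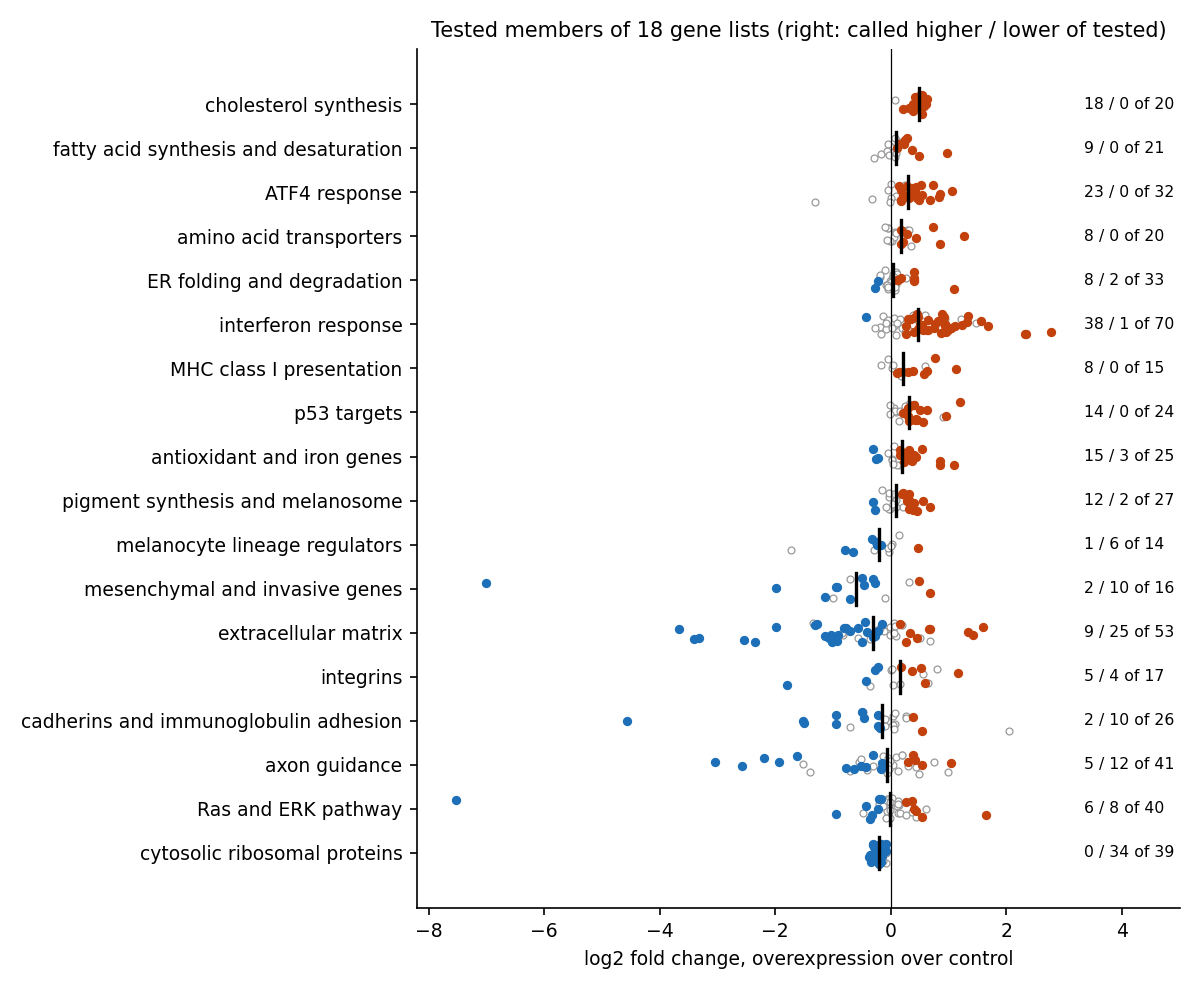
Log2 fold change of overexpression over control for the tested members of 18 gene lists, 1 point a gene, filled where the gene was called and open where it was not, with a black bar at the median. The mesenchymal and extracellular matrix medians are −0.60 and −0.30, and the cholesterol and interferon medians are 0.49 and 0.47.

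Many interferon response genes rose, most of them effectors or PARP, TRIM and GTPase genes. The promoter stretches shown are those of 4 risen genes around their matches to the interferon-stimulated response element, GAAA repeated after a gap of any 2 bases, which IRF factors bind. Matches on either strand are in capitals, and those that overlap run together. The sequences are RefSeq promoters of GRCm38.p6 in the direction of the gene.
Isg15, chr4:156200860-156200911, minus strand: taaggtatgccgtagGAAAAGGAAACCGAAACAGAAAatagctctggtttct
Ifit1, chr19:34640770-34640828, plus strand: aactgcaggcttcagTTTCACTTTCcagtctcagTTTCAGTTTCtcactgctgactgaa
Rsad2, chr12:26456548-26456587, minus strand: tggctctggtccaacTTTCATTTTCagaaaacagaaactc
Gbp7, chr3:142530268-142530307, plus strand: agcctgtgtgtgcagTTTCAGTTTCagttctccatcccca
In Isg15 the 3 matches lay 78 to 57 bases before the gene start. In windows from 250 bases before to 50 bases after the start, 26 of the 57 list members with a RefSeq promoter (45.6%) held a match, beside 3.53% of 9743 tested genes and 3.44% of all 32851 promoters. The share was 5.66% among genes that rose and 3.19% among genes that fell. The former set includes the risen members of the list, so its share is not separate from theirs.

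Of 70 tested interferon response genes 38 rose and 1 fell (median 0.47). Isg15, a ubiquitin-like modifier gene, stood at 5.58, 5.70 and 4.63 CPM in controls and at 10.0, 10.7 and 9.69 CPM with overexpression (0.93 ± 0.19, adjusted p = 0.00185). Ifit1, which binds foreign RNA (13.8 to 25 CPM, 0.86 ± 0.15), the antiviral enzyme gene Rsad2 (30.7 to 47.1 CPM, 0.62 ± 0.09), the guanylate-binding protein gene Gbp7 (4.56 to 9.08 CPM, 0.99 ± 0.17) and Ifitm3, which blocks virus entry (36.5 to 70.8 CPM, 0.96 ± 0.07), rose as well. By role, 16 of 29 effectors and 17 of 19 PARP, TRIM and GTPase genes rose, the latter with a median of 0.77, Parp14 among them (6.57 to 15.3 CPM, 1.22 ± 0.14). Of 8 transcription factors 4 rose, and Irf1 was at 12.9 and 13 CPM. Of 8 sensors of foreign nucleic acid 1 rose, Ddx58, the gene of RIG-I (24.6 to 47 CPM, 0.93 ± 0.09). Of 6 receptor, ligand or receptor kinase genes none rose. Ifnar1 was at 87.8 and 83.7 CPM, and the kinase gene Jak1 fell (171 to 127 CPM, −0.43 ± 0.05, adjusted p = 1.49e-05). With the length correction the 38 rises became 25, with 11 effectors, 11 PARP, TRIM and GTPase genes and 2 transcription factors among them. In the MHC class I list 8 of 15 rose and 0 fell (median 0.20), including H2-D1 (74.9 to 91.8 CPM, 0.29 ± 0.06) and the peptide transporter gene Tap2 (1.77 to 3.86 CPM, 1.12 ± 0.28), with H2-K1 at 24 and 21.5 CPM. The 8 rises became 5 with the length correction or without control replicate 2 or 3 or without overexpression replicate 2 or 3. Stat3, named after its values were seen, stood at 145, 144 and 153 CPM in controls and at 75.1, 84.6 and 87 CPM with overexpression (−0.84 ± 0.06, adjusted p = 7.78e-08).

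In the ATF4 response, which cells use when amino acids run short or the endoplasmic reticulum is stressed, 23 of 32 tested genes rose and 0 fell (median 0.29). Of 20 amino acid transporter genes 8 rose and 0 fell (median 0.17), and of 19 cytosolic tRNA synthetase genes 8 rose and 1 fell (median 0.11). The 8 synthetase genes that rose became 4 with the length correction, and the count that fell became 2 without control replicate 1. Atf5, a transcription factor gene of the ATF4 response, stood at 93.2, 93.1 and 94.8 CPM in controls and at 205, 196 and 184 CPM with overexpression (1.06 ± 0.06, adjusted p = 6.25e-09). Of the enzymes 9 of 10 rose, such as Cth, which makes cysteine (26.2 to 46.9 CPM, 0.84 ± 0.08), and Mthfd2, a mitochondrial folate enzyme gene (256.1 to 374 CPM, 0.55 ± 0.04). Of the transporters 6 of 8 rose, such as Slc7a11, the cystine importer gene (101 to 183 CPM, 0.85 ± 0.05). With the length correction the rises of the list became 17 and those of its enzymes 6. Chac1 (47.8 and 46.3 CPM) and Atf3 (12.9 and 10.3 CPM) were not called. Of 33 endoplasmic reticulum folding and degradation genes 8 rose and 2 fell (median 0.04), with Herpud1, a degradation factor gene, higher (108 to 229.5 CPM, 1.09 ± 0.04, adjusted p = 5.50e-11) and the chaperone gene Hsp90b1 at 1780 and 1900 CPM. The 8 rises became 3 with the length correction, 4 without control replicate 3 and 5 without control replicate 2 or without overexpression replicate 3, and the 2 falls became 1 with the length correction or without overexpression replicate 1.

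In lipid metabolism 18 of 20 cholesterol synthesis genes rose and 0 fell (median 0.49), Hmgcs1 (196 to 304 CPM, 0.63 ± 0.05) and Idi1 (126 to 193 CPM, 0.61 ± 0.06) among them, and Ebp (63.6 and 67.3 CPM) and Tm7sf2 (11.3 and 15.3 CPM) were not called. Of 21 fatty acid genes 9 rose and 0 fell (median 0.09). The 9 rises became 5 with the length correction. Vldlr, a lipoprotein receptor gene, rose (7.12 to 13.4 CPM, 0.91 ± 0.14).

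Pigment genes rose more often than they fell, and the lineage transcription factors that changed fell. The M-box TCATGTG, to which MITF binds, is shown in 2 pigment gene promoters of RefSeq GRCm38.p6, in capitals.
Tyr, chr7:87493513-87493549, minus strand: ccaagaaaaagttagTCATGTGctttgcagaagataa
Trpm1, chr7:64153678-64153714, plus strand: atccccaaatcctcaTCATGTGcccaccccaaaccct
On either strand it was in 6 of 22 pigment list promoters (27.3%), 2.56% of tested genes, 2.31% of genes that rose, 2.66% of genes that fell and 3.77% of all promoters. Of the other motifs searched on both strands, the sterol element TCACNCCAC was in 1 of 15 cholesterol gene promoters (1.42% of tested genes and 1.24% of all promoters), the CEBP-ATF element TGATGNAAT in 2 of 29 ATF4 response promoters (0.513% and 0.965%), the AP-1 site TGANTCA in 1 of 8 mesenchymal promoters (5.81% and 7.81%), and the ER stress element, CCAAT and CCACG 9 bases apart, in 8 of 27 ER folding promoters (0.185% and 0.119%). Of 27 pigment genes 12 rose and 2 fell (median 0.09). The 2 falls became 1 with the length correction or without control replicate 1 or without overexpression replicate 1 or 2. Tyr, the gene of tyrosinase, stood at 443, 441 and 439 CPM in controls and at 592, 627 and 592 CPM with overexpression (0.45 ± 0.04), and the channel gene Trpm1 (234 to 374 CPM, 0.68 ± 0.04) and the melanosome motor gene Myo5a (443 to 649 CPM, 0.55 ± 0.04) rose, while Dct (4458 and 4659 CPM), Pmel (3810 and 3919 CPM) and Mlana (867 and 902 CPM) were not called. Tyrp1, the most abundant of the melanocyte markers (6565 to 7773 CPM), and Slc45a2 (710.5 to 888.7 CPM) were also called higher in the main fit. Of 9 lineage transcription factor genes 0 rose and 5 fell (median −0.24). Tfap2a fell most clearly (132 to 83.2 CPM, −0.66 ± 0.06), Sox10 (492 to 413 CPM, −0.25 ± 0.04) and Mitf (378 to 334 CPM, −0.18 ± 0.04) by less. Of 12 Schwann cell and glial markers, which include Sox10, 10 were tested, 3 fell and 1 rose. Their summed level went from between 788 and 851 CPM to between 736 and 763 CPM, a sum in which Sox10 alone stood at 492 and 413 CPM. The gene that rose in the main fit was Mbp, a myelin gene (41.8 to 89.3 CPM, 1.10 ± 0.08).

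Iron handling and antioxidant genes rose in 15 of 25 cases and fell in 3 (median 0.19). The 15 rises became 9 with the length correction. Slc40a1, the iron exporter gene (20.3 to 43.3 CPM, 1.09 ± 0.09), Gclm, of glutathione synthesis (79 to 142 CPM, 0.85 ± 0.05), and Hmox1 (107 to 156 CPM, 0.54 ± 0.05) rose, with their regulator gene Nfe2l2 at 119 and 120.2 CPM. Of 24 p53 targets 14 rose and 0 fell (median 0.32), for example Ccng1 (369.7 to 543 CPM, 0.55 ± 0.05) and Cdkn1a (240.3 to 329 CPM, 0.45 ± 0.04), with Trp53 itself at 159.6 and 157 CPM. Of 40 G1 and S phase genes 13 rose and 2 fell (median 0.07). The 13 rises became 8 with the length correction, and the 2 falls became 0 without control replicate 1 or without overexpression replicate 3 and 1 with the length correction or without control replicate 2 or 3 or without overexpression replicate 1 or 2. The replication helicase gene Mcm2 rose (364 to 586 CPM, 0.69 ± 0.04), and its partner Mcm4 was at 197 and 199 CPM. Of 40 lysosome genes 12 rose and 1 fell (median 0.06), with the protease gene Ctsb higher (259 to 445 CPM, 0.78 ± 0.04, adjusted p = 7.28e-10).

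Beside the knockdown line, 1139 of the 3172 genes (35.9%) also differed between overexpression and knockdown by the direct test. The share of all tested genes was 22.1%. Both tests use the same overexpression libraries, so the higher share is not independent of how the 3172 genes were picked. Of the 1139 genes, 379 were higher with overexpression than in both other lines and 373 lower than in both, while 238 were higher than in control and lower than in knockdown, and 149 the reverse. Among the first were Thbs1 (17.1 CPM in the knockdown line, 0.96 against it, adjusted p = 3.19e-06), Chn2, a Rac GTPase-activating gene (15.2 to 27.7 CPM, 0.86 ± 0.10, with 13 CPM in the knockdown line), and Fez1, a kinesin adaptor gene (18.5 to 34.5 CPM, 0.91 ± 0.12, with 17.5 CPM). Isg15 was at 4.40 CPM in the knockdown line. Lower than in both were Masp1, a complement lectin pathway protease gene, at 115, 115 and 117 CPM in controls and at 53, 50.7 and 49.6 CPM with overexpression and 115 CPM in the knockdown line (−1.16 against it, adjusted p = 2.52e-10), Hapln1, which links hyaluronan to proteoglycans (17.4 to 7.02 CPM, −1.31 ± 0.14, with 21.6 CPM in the knockdown line), and Cyp26b1, which breaks down retinoic acid (28 to 10.9 CPM, −1.36 ± 0.12, with 31 CPM). Dhrs3, another retinoid enzyme gene, rose (1.59 to 6.75 CPM, with 3.03 CPM in the knockdown line). The imprinted RNA H19 fell (29.6 to 3.61 CPM) and was lower still in the knockdown line, at 0.116 CPM. Against the knockdown line, 1099 of the higher genes and 934 of the lower genes were not called. Among them were Ctsb (454 CPM in the knockdown line), Slc7a11 (201 CPM), Tfap2a (85.7 CPM), Erbb3 (48.4 CPM), Ltbp4 (15.7 CPM) and Cdh6 (0.447 CPM). Prkg2 (1.53 CPM), Axl (9.86 CPM) and Itga3 (2.66 CPM) were also lower in the knockdown line than in controls.

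**Figure D4:**
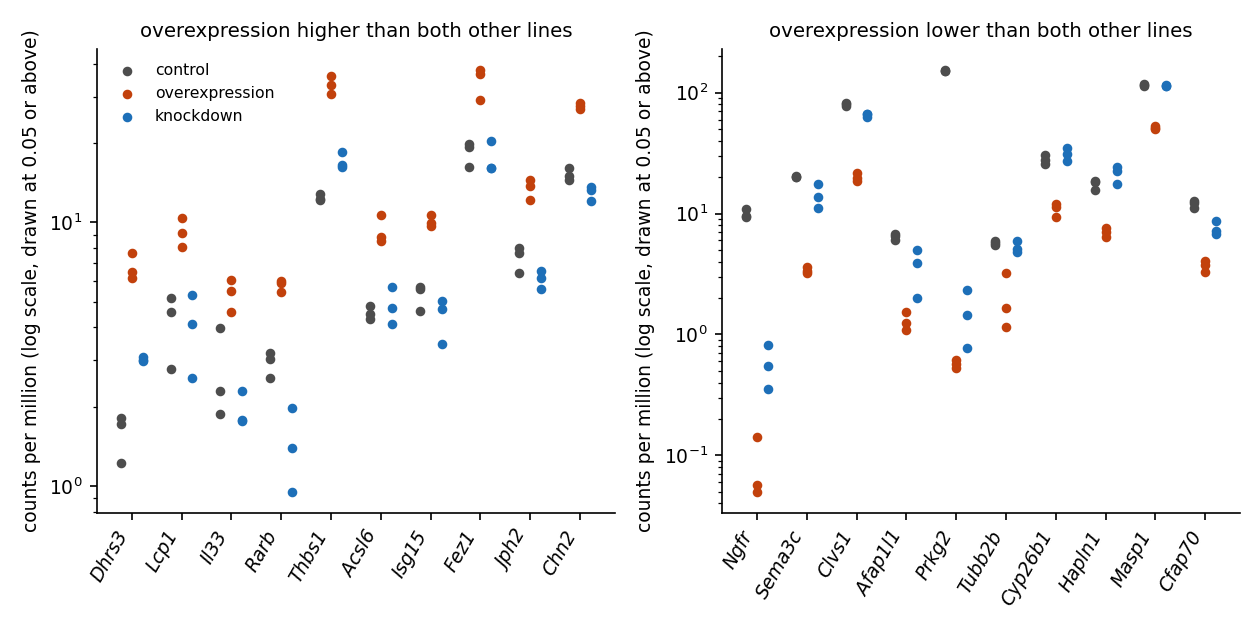
CPM (log axis, values under 0.05 drawn at 0.05) in each library of the 3 lines for 10 genes higher and 10 genes lower with overexpression than in both other lines. The genes were picked among those whose 3 overexpression libraries lie beyond all 6 others, so the separation follows from the choice.

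Transcript shares within genes changed in few genes. Of 6995 genes with at least 2 transcripts above the minimum share, edgeR called 55 (0.786%) and limma 10, with 8 in common, and at an unadjusted p under 0.05 the counts were 697 and 798. On simulated counts the edgeR share test called unchanged genes above its nominal rate, and limma did so less often. The simulation gave all transcripts the same dispersion and left out Salmon's division of fragments, so it does not show how reliable a call is here. With that limit, only the 8 genes are described further. They are Sirpa, Fkbp6, Morc2a, Epb41l2, Sap130, Pnck, Srsf11 and Prc1, and of these the total rose in Sirpa and Morc2a and was not called in the others. The call held in 11 of 11 alternatives for Sirpa and Fkbp6, in 10 for Epb41l2, in 6 for Morc2a, in 5 for Prc1 and in 4 for Sap130 and Srsf11, and was not followed for Pnck. In Epb41l2, a membrane skeleton gene, Epb41l2-201 held 40.6%, 41.6% and 46.7% in controls and 65.7%, 67.7% and 56.3% with overexpression (adjusted p = 0.00749 by edgeR and 0.0112 by limma). The 2 lines did not overlap, and the gene total was at 141 and 129 CPM. In Morc2a, a chromatin regulator gene, Morc2a-202 held 37.2%, 31.9% and 37.8% in controls and 54.6%, 50.2% and 63.8% with overexpression (adjusted p = 0.00680 by edgeR and 0.0112 by limma). In Fkbp6, an immunophilin family gene, Fkbp6-204 held 17.2%, 16.8% and 19.8% in controls and 6.80%, 8.76% and 7.37% with overexpression, and the total was at 135 and 132 CPM. In Prc1, a central spindle gene, Prc1-210 held 21.5%, 16.1% and 24.4% in controls and 30.5%, 33% and 34.9% with overexpression. In the splicing factor gene Srsf11, Srsf11-204 held 15.5%, 17.4% and 14.2% in controls and 9.45%, 8.06% and 6.01% with overexpression. By transcript class, retained introns held 2.93% ± 0.11 of TPM in controls and 3.16% ± 0.17 with overexpression (exact permutation test, two-sided, p = 0.2, with 0.1 the smallest possible), and the libraries overlapped. As a share of estimated counts they held 1.63% ± 0.047 and 1.75% ± 0.064 and did not overlap (p = 0.1, the same exact permutation test). Antisense transcripts held 0.318% ± 0.0074 of TPM in controls and 0.276% ± 0.0038 with overexpression, and 0.239% ± 0.0040 and 0.202% ± 0.0050 of estimated counts, without overlap in either unit (p = 0.1 for each in that permutation test). As the libraries are non-directional, fragments of antisense transcripts cannot be told apart from those of the genes they overlap.

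**Figure D5:**
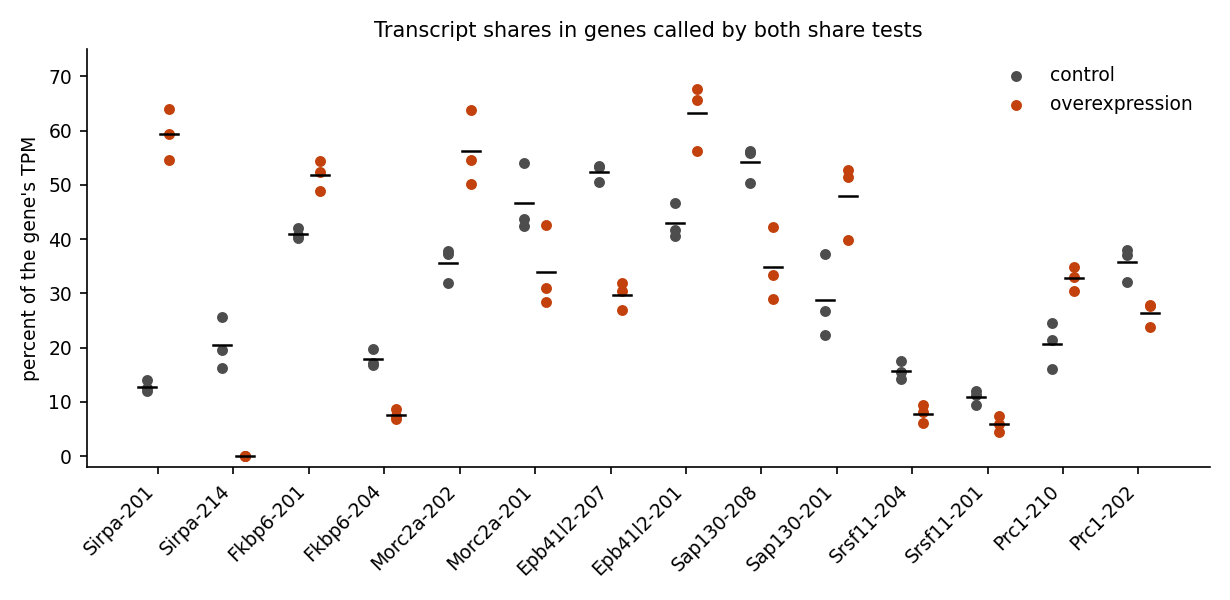
Share of the gene's TPM, in percent, held by the 2 transcripts with the largest change in each of 7 genes called by both share tests (Pnck, at a low level, is left out), in the 3 control and 3 overexpression libraries (points), with a bar at the mean. Sirpa-201 averaged 12.8% in controls and 59.3% with overexpression, and Epb41l2-201 43.0% and 63.2%.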

How the data were processed

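Total RNA of B16F10 cells was made into non-directional libraries and read as paired ends of 150 bases, per the labels' protocols. The deposited tables hold, per the file headers, an estimated count, TPM and effective length for each transcript. The submitters' processing notes name Salmon 1.4.0, MultiQC 1.11, DESeq2 1.34.0 and the build mm39, and the annotation release is not given in the sources used here.

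Transcripts were matched to genes by identifier with GENCODE M21 of GRCm38 (137161 of 140789, 97.42%). The unmatched ones held 0.574% to 0.654% of counts in the 6 libraries and were left out. Estimated counts were summed over 51717 genes, rounded, filtered (filterByExpr) and tested with edgeR 4.0.16 (R 4.3.3; TMM, quasi-likelihood F test, line as the only term, all 9 libraries), leaving 13064 genes. SEs were derived from the change and its F statistic. Transcript shares are percentages of the gene's TPM, tested on rounded counts with edgeR's diffSpliceDGE and limma 3.58.1, for transcripts holding at least 5% of the gene's TPM. Alternatives were DESeq2 1.42.0, limma-voom, other size factors, other filters, the 6 libraries alone, a transcript length offset, a replicate block and leaving out each library. The steps were tested on simulated data, and the limit to genes called by both share tests was chosen after seeing the data. Pairs of libraries of 1 line differed by more than sampling noise (chi-square per degree of freedom 4.81 to 7.02 in these lines).

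Named genes were Sirpa, the 12 largest rises and falls in CPM and the 16 in log2 fold change among called genes whose libraries did not overlap and whose mean reached 5 CPM, from each list up to 6 called members, taken by lowest adjusted p, members with a defining role, and for shares up to 20 genes. The rule allowed more than is printed, and genes needed to follow a pathway were added. The members, lists and rules were chosen with earlier results of these data known, so no list is independent evidence. Promoters and the Sirpa exon are given in GRCm38 and were matched by gene or transcript name, not by coordinates from the mm39 files. Of 1350 list members 1345 matched a gene.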

Additional observations from a re-analysis of the deposited data

How the results depend on the processing

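The main limit is transcript length. With the average transcript length offset 1575 genes were called, 905 higher and 670 lower, 438 of those also differing from knockdown, and 1491 of the 3172 genes (47.0%) kept their call in the same direction. The estimated biological coefficient of variation was then 0.165 in place of 0.0966. Under that offset Erap1 (−0.14), Vegfa (−0.02), Gbp3 (−0.22), Fgf1 (−0.15) and Sox5 (0.51) took the opposite sign without being called. The cause was not tested. The 7 other alternatives that kept all 6 libraries called 2957 to 3535 genes, and no alternative called any of the 3172 genes in the opposite direction. Leaving out 1 library gave 2440 to 2504 genes, 1334 to 1428 higher and 1046 to 1137 lower, 257 to 268 at least 2-fold apart and 772 to 908 differing from knockdown. Of 498 called genes on the lists or named by rule, 297 were called in all 14 alternatives. For transcript shares, limma called 10 genes (8 of them among the 55), a 10% share minimum 34 (30), the 6 libraries alone 90 (45) and the replicate block 26 (18), and leaving out 1 library 48 to 71, with 20 to 26 of the 55 among them. Shares of single genes are thus the least stable results. Replicate numbers did not pair the libraries (correlations of same-numbered deviations −0.054, −0.01 and −0.059), and with the replicate block 2957 genes were called, 2901 of them among the 3172. Depth limits genes of low count: 162 called genes were under 5 CPM.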

Other observations

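Retinoid genes rose in 6 of 15 tested cases and fell in 2 (median 0.32). Aldh1a3, which makes retinoic acid, fell (11.5 to 3.84 CPM, −1.58 ± 0.21), as did Cyp26b1, which breaks it down, and the receptor gene Rarg rose (57 to 72.8 CPM, 0.35 ± 0.06). Of 27 actin and contractility genes 7 rose and 3 fell (median 0.10), with the focal adhesion gene Zyx lower (196 to 157 CPM, −0.32 ± 0.04) and the beta-actin gene Actb at 2184 and 2148 CPM. The 7 rises became 4 without control replicate 3.

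Tagln2, an actin-binding gene, stood at 19.6, 20.3 and 19.5 CPM in controls and at 0.802, 1.06 and 1.43 CPM with overexpression. Cdh6, a cadherin gene, went from 9.52 to 0.394 CPM. Rnf149, a membrane ubiquitin ligase gene, stood at 30.9, 33.3 and 30.0 CPM in controls and at 83.6, 91.2 and 91.5 CPM with overexpression, 2.83-fold higher (1.5 ± 0.08, edgeR adjusted p = 1.64e-09), with 80.8 CPM in the knockdown line.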
